A study of Neurospora discreta with 48 samples.

Results

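The 119 genes with a mean of 10000 or more normalized counts were taken as the most abundant transcripts of Neurospora discreta, a filamentous ascomycete fungus, after 15 min of light. They were chosen from 9280 genes on 64 scaffolds by the mean over both arms of a comparison between 2 parental strains, so their levels and the differences between the arms are given as descriptions. The compared strains were the African parent FGSC8831, labelled high RI, and the North American parent FGSC8578, labelled low RI, where RI is left unexplained in the labels. Both grew as mycelial pads in low glucose media at 25 °C in cycles of 12 h light and 12 h dark, and RNA came from mycelia and conidia, with 3 libraries per strain. The series holds 48 libraries in all, and the other 42, from later times, the dark sample and 2 progeny of these parents, are not analysed here.

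The authors' deposited table gives 1 mean per gene for each arm, called B and A, as read counts divided by library size factors. Which strain stands behind each arm is not written in its columns, and the order of strains in its name would make B the African FGSC8831 and A the North American FGSC8578. Summed over all genes, the arm means came to 10507386 in B and 9331506 in A. No value per library was at hand, so the depth of single libraries is unknown and no SD can be given. The labels do not say whether the 3 libraries came from separate cultures, so the deposited p-values may measure technical spread only. Since these are bulk samples, fewer cells of a type and less RNA per cell cannot be told apart.

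Messenger RNA levels in growing fungal cells are very unequal, and the most abundant messages of filamentous fungi commonly encode ribosomal proteins, translation factors, histones, enzymes of glycolysis and small secreted proteins. In the related species Neurospora crassa, several clock-controlled genes also belong to this class. Blue light is sensed in N. crassa by the White Collar complex, a transcription factor that starts the transcription of light-induced genes within minutes and also drives the circadian clock. A library holds a limited number of reads, so a change in 1 very abundant message alters the share left to all others. Gene IDs come without names or functions in the authors' deposited table, so none of these roles can be assigned to a gene here, the labelled tissue could not be checked against markers, and genes are given by position. Positions are those of the authors' deposited table, whose genome build is not given in the sources used here.

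The 119 genes were 1.28% of the genes and carried 42.5% of the summed means in B and 43.9% in A. The single most abundant gene, on scaffold 10 (496231 to 496980), took 6.63% in B and 7.99% in A. The leading 5 genes together took 18.02% in B and 18.22% in A, and the leading 20 took 25.3% in B and 28.5% in A. Without the leading 5, the other 114 genes held 24.5% of B and 25.6% of A. The 1481 genes of the next tier, with means from 1000 to under 10000, held 39.5% of B and 36.4% of A. When genes were ranked within each arm, 202 genes made up 50% of the total in B and 186 in A. Both arms were thus dominated by a similarly small number of genes, with a slightly larger share in A.

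**Figure D1:**
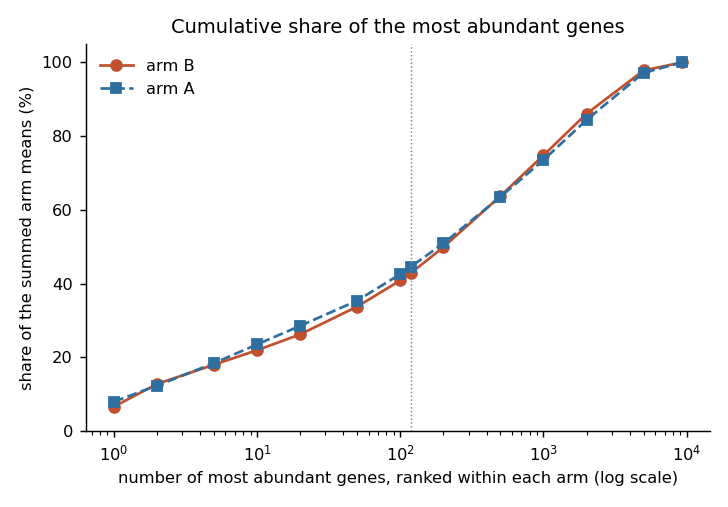
The share of the summed arm means (%) held by the most abundant genes, ranked within each arm, against the number of genes on a log axis, with arm B as filled circles and arm A as squares. The dotted line stands at 119 genes, where arm B had reached 42.9% and arm A 44.6%, and arm A is ahead from 5 to 200 genes of those plotted and arm B from 500 to 5000.

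At the top, the order of the genes was much the same in both arms. The 3 leading genes held the same ranks in B as in A, and 8 genes were among the top 10 of both arms. The scaffold 10 gene had a mean of 696625 in B and 745133 in A in the authors' deposited table. Second came a gene on scaffold 18 (184512 to 184872), at 646383 in B and 408127 in A in the authors' deposited table. It held 6.15% of the total in B and 4.37% in A. A scaffold 3 gene (253821 to 254687) followed with 238716 in B and 246755 in A in the authors' deposited table. These 3 genes spanned 750, 361 and 867 bp, each under the median of 1716 bp over all genes.

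The genes at ranks 4 to 10 were closer to each other in level. A gene on scaffold 1 (1011641 to 1012539) had 189873 in B and 133375 in A in the authors' deposited table. On scaffold 2, the gene at 490610 to 491679 stood at 122151 in B and 166813 in A in the authors' deposited table. Rank 6 went to a scaffold 18 gene (182828 to 183237), for which the authors' deposited table lists 78777 in B and 152534 in A, a wider gap on the log2 scale than for any other of the leading 10. For it the log2 ratio of B over A was -0.95, and the authors' deposited table lists adjusted p-values of 0.492 from DESeq and 0.274 from edgeR. A scaffold 19 gene (321047 to 321765) was at 100689 in B and 113418 in A in the authors' deposited table. Also on scaffold 18, the gene at 185026 to 186233 had 94545 in B and 76719 in A in the authors' deposited table. On scaffold 9, the gene at 495532 to 496615 had 47262 in B and 82326 in A in the authors' deposited table. At rank 10, a gene on scaffold 2 (1526161 to 1528232), had 75938 in B and 47555 in A in the authors' deposited table. Among these 10 genes, 4 had the higher mean in B and 6 in A, and neither tool of the authors called any of them different.

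Levels per length gave a similar top. Divided by the gene span in kb, which includes introns, the scaffold 18 gene of 361 bp led with 1790533 normalized counts per kb in B and 1130546 in A. The scaffold 10 gene followed with 928834 per kb in B and 993510 in A, and the 410 bp gene on scaffold 18 with 192140 per kb in B and 372034 in A. The scaffold 3 gene had 275336 per kb in B and 284608 in A, and the leading gene on scaffold 1 had 211205 per kb in B and 148360 in A. Of the 10 genes highest per kb, 9 were among the 10 highest without the division. Across the list, 93 of the 119 genes were also among the 119 highest per kb. The 26 genes that took the places of the others had a median span of 855 bp and means from 1885 to 9879, and the 26 that gave way had a median span of 1941 bp.

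Gene span did not enter the choice of the genes, although longer transcripts yield more reads at the same number of molecules. The 119 genes had a median span of 1475 bp, against 1716 bp for all genes and 2048 bp for the tier from 1000 to under 10000. Spans from 1000 to under 2000 bp were found for 73 of the 119 (61.3%), against 37.1% of all genes. Beside all genes both ends of the range were sparse, with 4 genes under 600 bp (3.36%, against 12.2% of all and 1.35% of that tier) and 8 of 3000 bp or more (6.72%, against 15.8%). The shortest were the scaffold 18 genes of 361 and 410 bp. The longest were a gene of 5705 bp on scaffold 23 (66036 to 71740), with 51105 in B and 47184 in A in the authors' deposited table, and one of 4349 bp on scaffold 4 (1174280 to 1178628), with 12577 in B and 9265 in A in the authors' deposited table. Among the leading 10 the median span was 883 bp, against 1562 bp for the other 109. No test was made of these differences.

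**Figure D2:**
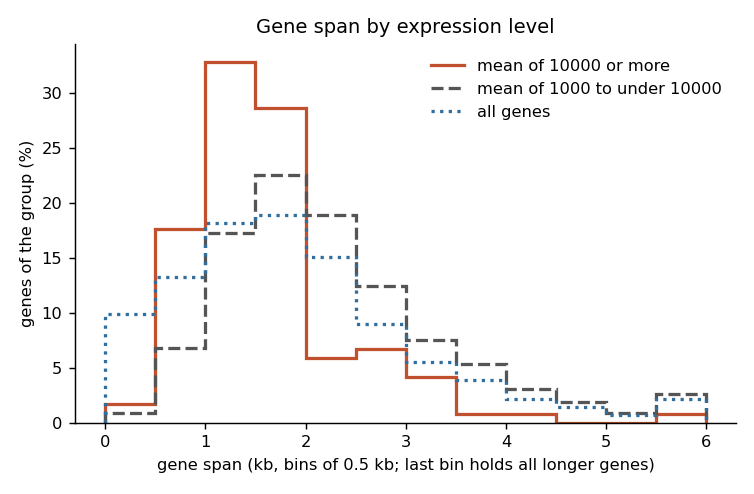
The percentage of genes in each group by gene span in kb, in bins of 0.5 kb, for genes with a mean of 10000 or more (solid), for the tier from 1000 to under 10000 (dashed) and for all genes (dotted). The solid line is highest between 1 and 2 kb, where 61.3% of its genes lie.

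Tags in the names of the gene models were unevenly represented. In 92 of the 119 IDs (77.3%) the name holds the tag kg, against 41.7% in the next tier and 20.1% of all genes. None of the 119 was a model from the SNAP or Augustus series of names, which make up 2.16% of the next tier and 9.07% of all genes. Strand was even, with 60 genes on the plus and 59 on the minus strand. The distance from the 5' end of a gene to the next model had a median of 1281 bp for the 119 genes and 1244 bp for all genes. A head-to-head neighbour on that side was present for 62 of the 119 (52.1%), against 54.2% of all. No test was made of spacing or orientation. Of the 119 genes, 6 overlapped another model, where reads of both models cannot be told apart because the strand setting of the counting is not known here. None of the leading 10 or of the genes called different was among those 6.

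The genes lay on 23 of the 64 scaffolds. Scaffold 1 carried 19 of them among 1301 genes (1.46%), scaffold 4 carried 14 among 805 (1.74%) and scaffold 7 carried 12 among 574 (2.09%). The highest share on a scaffold with at least 40 genes was 5 of 99 (5.05%) on scaffold 18. Scaffolds 13 and 11 held 3 of 269 and 2 of 302. Neighbours on the same scaffold were a median of 134.5 kb and 38 gene places apart. On the 23 scaffolds with at least 40 genes, 6 of 117 (5.13%) lay within 50 kb of the first or last model of the scaffold, against 7.23% of all genes there. The share of a scaffold's summed means that these genes carried was 94.3% in B and 93.9% in A on scaffold 18, and 78.0% in B and 80.7% in A on scaffold 10. On scaffold 11 it was 13.3% in B and 10.3% in A.

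Some of the genes stood side by side. For 17 of the 119 (14.3%) an adjacent model in the gene order was also one of the 119, while 219 of the other 9161 genes (2.39%) had such a neighbour. Within 10 kb, the counts were 21 of 119 (17.6%) and 659 of 9161 (7.19%). The 17 genes formed 9 adjacent pairs, of which 6 were head to head, 2 tail to tail and 1 on the same strand. Over all 9216 adjacent pairs, 27.1% were head to head. No chance test was made of these counts. In 5 of the 6 head-to-head pairs the log2 ratios of B over A of the partners differed by less than 0.2. Ratios near 0 were common in the list, as 49 of the 119 genes (41.2%) were within 0.25 of 0. How often genes of the list that are not neighbours differ this little was not computed, so nothing is read from that count.

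The closest head-to-head pair lay on scaffold 2, with 154 bp between the gene at 2990075 to 2991549 and that at 2991704 to 2993235. The first had 12311 in B and 9988 in A, and the second 12668 in B and 10671 in A, in the authors' deposited table. On scaffold 23, the 5705 bp gene and its neighbour at 71987 to 73472 were 246 bp apart, and the neighbour had 11285 in B and 9283 in A in the authors' deposited table. A pair on scaffold 8, with 692 bp between its genes, had 14546 in B and 15906 in A (637001 to 637942), and 13980 in B and 14017 in A (638635 to 639163), in the authors' deposited table. The 6 genes of these pairs had log2 ratios from -0.13 to 0.30. In the head-to-head pairs on scaffold 5 (741541 to 746560) and scaffold 10 (1117706 to 1121790) the log2 ratios ran from -0.22 to 0.15. None of these 10 genes was called different. The same-strand pair on scaffold 7 was unlike these. Its first gene (183042 to 185233) had 10982 in B and 15592 in A, and the second (187051 to 188985) had 24861 in B and 7218 in A, in the authors' deposited table.

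A group of 3 neighbours was the largest, formed by genes on scaffold 18, which held ranks 2, 6 and 8 among all genes. They occupied 3.41 kb and together held 7.80% of the summed means in B and 6.83% in A. They carried 91.0% of the scaffold's summed means in B and 89.2% in A. The outer genes are on the minus strand and the middle one on the plus strand, with gaps of 1274 and 153 bp. Within the group the direction was not shared, as the log2 ratios of B over A were -0.95, 0.66 and 0.30 in the order of position, and none of them was called. The model next to the group (186989 to 187905), which is not among the 119, had 4.28 in B and 91.1 in A in the authors' deposited table. On the other side, the model at 179035 to 181408 had 3307 in B and 4683 in A in the authors' deposited table. Levels thus changed by orders of magnitude between neighbouring models. Another gene of the list on this scaffold, at 242895 to 243526, was called different.

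**Figure D3:**
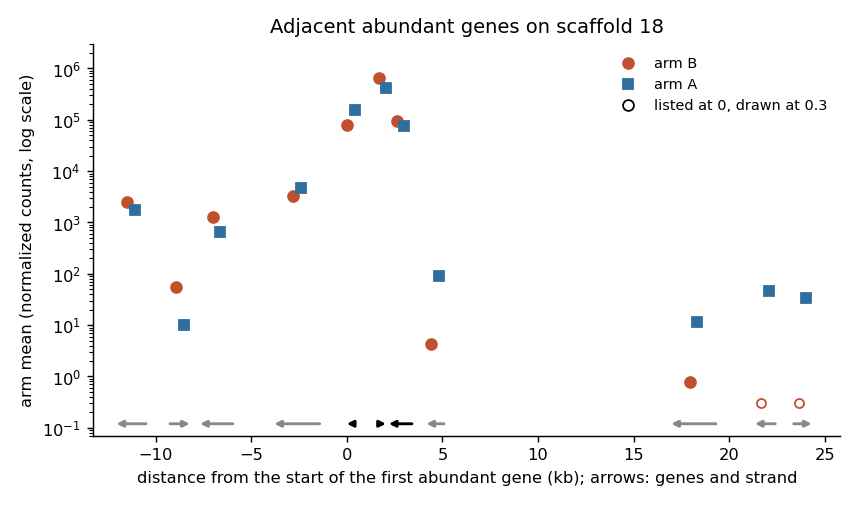
Arm means in normalized counts on a log axis for the 3 abundant neighbours on scaffold 18 and the 4 models on either side, against the distance in kb from the start of the first of the 3, with arm B as circles and arm A as squares, and arrows for genes and strand (black for the 3). The 3 genes stand between 76719 and 646383, and all 8 models around them are below 5000.

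For most of the 119 genes the arm means lay close together, which does not by itself show that the levels were the same. The log2 ratio of B over A was within 0.5 of 0 for 76 genes (63.9%), against 51.8% of the tier from 1000 to under 10000, 57.1% of the tier from 100 to under 1000 and 48.0% of all genes. It was within 1 for 98 genes (82.4%), against 80.6% and 82.5% of these tiers and 73.0% of all. The median absolute log2 ratio was 0.30, against 0.48 and 0.42 in the tiers and 0.51 over all genes with a finite ratio. The higher mean was in B for 71 of the 119 genes and in A for 48. The median log2 ratio was 0.17, against 0.32 in the tier from 1000 to under 10000 and 0.03 over all genes, but it was -0.0051 when the arm totals were set equal, which lowers every log2 value by 0.17. With equal totals, 13 of the 119 genes changed direction, none of them called different, and 58 were higher in B.

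**Figure D4:**
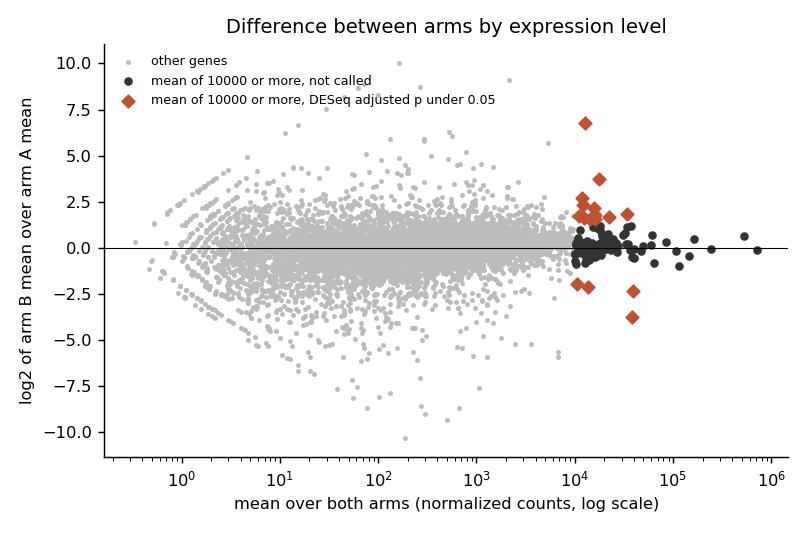
The log2 of the arm B mean over the arm A mean against the mean over both arms in normalized counts on a log axis, for each gene with a mean above 0 in both arms. Black points and red diamonds are the 119 genes with a mean of 10000 or more, the diamonds being the 16 with a DESeq adjusted p under 0.05, of which 12 lie above 0 and 4 below.

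By DESeq, as listed in the authors' deposited table, 103 of the 119 genes were not called different at an adjusted p under 0.05 and 16 were, a share of 13.4% beside the 15.0% called over all 9280 genes. By direction, B was the higher arm for 12 and A for 4, beside 6.93% and 8.03% of all genes called in these directions. By edgeR the same 16 genes were called in the authors' deposited table at a false discovery rate under 0.05, beside 21.4% of all genes. With the limit at 0.01 for DESeq, 10 of the 16 were called, beside 9.60% of all genes. Of the 16, 13 reached 10000 normalized counts in 1 arm only, 10 of them in B and 3 in A, and 3 were among the 90 genes that reached it in both arms. A gene that entered the list through its higher arm had to differ, so nothing is read from the share called. The genes not called held 39.2% of the summed means in B and 41.2% in A. The 12 higher in B held 3.02% in B and 0.796% in A, and the 4 higher in A held 0.261% in B and 1.87% in A. The called genes began at rank 16, so all 15 genes above it were among those not called.

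A call that was missed does not show that a gene had the same level in both strains. An approximate standard error of each log2 fold change was obtained as the absolute edgeR value divided by the square root of its likelihood ratio in the authors' deposited table. The libraries and the dispersion behind that ratio are not stated, and the intervals hold only as far as it describes these arms. Over the 116 genes with a likelihood ratio large enough for this, the standard error had a median of 0.48 on the log2 scale and ran from 0.36 to 0.82. In the tier from 1000 to under 10000 the median was 0.35. It was 0.62 among the leading 10 genes and 0.47 among the rest of the 116, so the deeper counts of the leading genes did not come with smaller errors. Of the 100 genes not called with a standard error, 9 had an approximate 95% interval inside a 2-fold change in either direction, while 91 had an interval that passed 2-fold on at least 1 side. For the leading gene on scaffold 10 the edgeR log2 fold change was -0.11 ± 0.81 (approximate SE), so a difference of more than 2-fold either way lay within its interval.

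**Figure D5:**
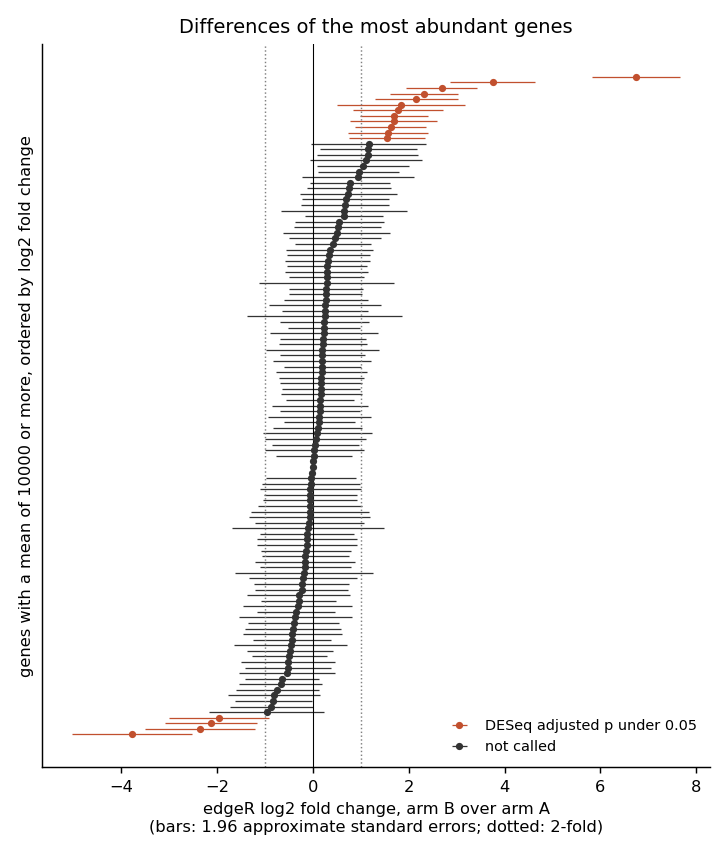
The edgeR log2 fold change of arm B over arm A for each of the 119 genes, ordered by value, with dotted lines at a 2-fold change. Bars are 1.96 approximate standard errors, drawn for the 116 genes that have one. Red marks the 16 genes with a DESeq adjusted p under 0.05, and most black bars cross a dotted line, as 91 of 100 did.

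Genes with a likelihood ratio under 0.001 have no interval and could not be counted here, however close their arm means. Among the 100 uncalled genes with a standard error, similar levels are best documented for the 9 with an interval inside 2-fold. They comprised 4 genes on scaffold 1, 4 on scaffold 5 and 1 on scaffold 4. Of the 9, the scaffold 1 gene at 4300911 to 4304049 overlaps another model. The head-to-head pair on scaffold 5 was also among the 9. Its first gene (741541 to 743681) had 17628 in B and 15899 in A in the authors' deposited table, with an approximate interval from -0.61 to 0.88 on the log2 scale. The second (744999 to 746560) had 16438 in B and 15722 in A in the authors' deposited table, with an interval from -0.86 to 0.96. On scaffold 4, the gene at 2758820 to 2760157 had 15977 in B and 15624 in A in the authors' deposited table, with an interval from -0.78 to 0.82. The narrowest of the 9 was a scaffold 1 gene (4187292 to 4188875), with 10996 in B and 9800 in A in the authors' deposited table and an interval from -0.56 to 0.86.

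Of the 12 genes called higher in B, the widest difference was that of estExt_Genewise1.C_40395 on scaffold 4 (protein 76504, 792518 to 793694). It had 25494 in B and 236 in A in the authors' deposited table, 108-fold higher in B, with a log2 ratio of 6.76 and an approximate SE of 0.47. It ranked 33rd in B and 4534th in A, so it belonged to this list through arm B alone. Next was estExt_fgenesh3_pm.C_130065 on scaffold 13 (protein 158280, 300176 to 303178), with 32896 in B and 2426 in A in the authors' deposited table, a log2 ratio of 3.76 and an approximate SE of 0.45. Both had a DESeq adjusted p and an edgeR false discovery rate listed at 0 in the authors' deposited table.

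The other 10 genes higher in B had log2 ratios from 1.56 to 2.70. On scaffold 8, the gene at 1294985 to 1296914 had 20324 in B and 3133 in A in the authors' deposited table, 6.49-fold higher in B. The gene on scaffold 6 (1545676 to 1547572) was 5.05-fold higher in B, and a scaffold 7 gene (36814 to 39669) was 4.49-fold higher, with 25542 in B and 5685 in A in the authors' deposited table. Most abundant of the 12 was a scaffold 15 gene of 843 bp (745524 to 746366), for which the authors' deposited table lists 53209 in B, 14671 in A and an adjusted p of 0.0356 from DESeq. The remaining 6 were on scaffolds 1, 3, 7 and 14, with 16872 to 34221 in B and 5161 to 10553 in A in the authors' deposited table. These were the scaffold 1 genes at 1257604 to 1259368 and 2760795 to 2763594, 2.997-fold and 2.946-fold higher in B, and the scaffold 3 gene at 1639345 to 1640555, 3.24-fold higher. On scaffold 7 the genes at 187051 to 188985 and 199830 to 202797 were 3.44-fold and 3.27-fold higher in B, and on scaffold 14 the gene at 768288 to 769433 was 3.12-fold higher.

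Scaffold 7 held 3 of the 12, all within its first stretch of abundant genes. Between 36814 and 301794, a stretch of 265 kb with 76 models, 7 of the 119 genes were found. Of these 7, 6 had the higher mean in B, beside 71 of all 119 (59.7%). Those not called there included the gene at 299192 to 301794, with 51321 in B and 22923 in A, and that at 123552 to 124386, with 22796 in B and 10947 in A, in the authors' deposited table. Beyond this stretch lay the 5 other abundant genes of the scaffold, and none of these was called. Over the whole list 16 of the 119 genes were called, and 15.0% of all genes. This stretch was picked out after its values had been seen, so nothing is read from its counts.

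The 4 genes called higher in A were found on 4 scaffolds. The widest difference was that of estExt_fgenesh3_kg.C_150012 on scaffold 15 (protein 169335, 56761 to 57496), with 5185 in B and 70447 in A in the authors' deposited table, a log2 ratio of -3.76 and an approximate SE of 0.64. It ranked 305th in B and 10th in A. The gene estExt_fgenesh3_kg.C_40324 on scaffold 4 (protein 166634, 2264111 to 2265680) had 12673 in B and 64814 in A in the authors' deposited table, with a log2 ratio of -2.35, an approximate SE of 0.59 and an adjusted p of 0.0239 from DESeq. On scaffold 1, the gene at 2755017 to 2756493 stood 4.30-fold lower in B, with 5185 in B and 22303 in A in the authors' deposited table. On scaffold 18, the gene at 242895 to 243526, of 632 bp, stood 3.87-fold lower in B, with 4335 in B and 16764 in A in the authors' deposited table. These 4 genes had a median span of 1107 bp, and the 12 higher in B a median of 1914 bp. On scaffold 1, the gene lower in B lay 4.30 kb from the gene at 2760795 to 2763594, which was higher in B, with 2 models between them.

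Because the list was drawn from the mean over both arms, its genes fell into classes by arm. Of the 119, 90 had at least 10000 normalized counts in both arms, 21 in B only and 8 in A only. Ranked within each arm, 93 genes were among the 119 highest of both arms. The genes just inside the limit were on scaffold 1 (1715686 to 1716901), with a mean of 10129, and on scaffold 8 (262367 to 263050), with 10071, in the authors' deposited table. Just outside were a scaffold 25 gene (31771 to 32854) at 9879 and a scaffold 12 gene (807559 to 811095) at 9700 in the authors' deposited table.

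The edgeR average, in log2 CPM, is a further readout in the authors' deposited table. It was set against the level in the compared libraries as the average minus the log2 mean, centred on its median in 6148 genes (mean of 100 or more). That difference had an SD of 0.28 over the 6148 genes, so the average was not a plain restatement of the mean over the 2 arms, and the libraries it covers are not stated. By this average, 102 of the 119 genes were among the 119 highest, and the lowest ranked 193rd. Because the difference subtracts the mean by which the 119 were chosen, that choice itself pushes it below 0, and its values are given for single genes only.

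A single gene stood far above the rest on that measure. The scaffold 14 gene at 19524 to 22003 had 24407 in B and 20432 in A in the authors' deposited table, and its average lay 2.52 log2 units above its level in the compared libraries. It also had the widest upstream gap of the 119 genes, with 25801 bp to the next model. The next highest were the scaffold 4 gene lower in B at 2264111, at 0.67, and a scaffold 3 gene (2356771 to 2358352) at 0.54. After these came a second scaffold 4 gene (296917 to 298269) at 0.51 and a scaffold 16 gene (559426 to 561024) at 0.50. Farthest below were the 2 genes with the widest differences in each direction, that on scaffold 4 at 792518, at -0.99, and that on scaffold 15 at 56761, at -0.92. They were followed by the ninth most abundant gene, on scaffold 9, at -0.88, a scaffold 12 gene (12460 to 13118) at -0.76 and the scaffold 1 gene lower in B at 2755017, at -0.57. The scaffold 12 gene had 46507 in B and 21400 in A in the authors' deposited table and was not called.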

How the data were processed

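RNA was sequenced by the authors with 3 libraries per strain and time. The submitters' processing notes name FastQC 0.11.4, cutadapt 1.3 and TopHat2 2.1.1, and, with no version, SAMtools, HTSeq, DESeq and edgeR; they give no role or order. The build is not given in the sources used here, nor is the annotation or the strand setting.

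The values used here come from 1 comparison table deposited by the authors. The authors made its signal values by dividing read counts by DESeq size factors and averaging them over both arms and within each arm, per the file headers and the low values. Also per the file headers, DESeq gave a fold ratio with p-values, raw and adjusted. For edgeR the deposited columns are a log2 fold change, the average expression in log2 CPM, the likelihood ratio (a score) and p-values with their false discovery rate, per the file headers. Because the deposited table holds no counts per library, no count model was fitted, as the design had foreseen. Calls are therefore those of the authors' deposited table, and the set of genes over which its p-values were adjusted is not stated.

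Log2 ratios of B over A are computed here from the deposited means, with no pseudocount. The log2 column that the authors took from DESeq was not used, because some of its cells hold a spreadsheet error. Gene span is end minus start plus 1. The approximate standard error was computed where the likelihood ratio was at least 0.001, since smaller values are lost in rounding. It was tested on simulated data with a known dispersion. That cannot show how well it holds here, where the dispersion and the libraries behind the ratio are not stated. Intervals are 1.96 standard errors either side of the edgeR value from the authors' deposited table. Python 3.11.15, numpy 2.4.6, pandas 2.3.3 and matplotlib 3.10.9 were used.

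Genes named are the 10 most abundant, all called, the 5 highest per kb, the shortest and longest 2, those beside the limit, the largest adjacent group and the 5 farthest above and below by the edgeR average of the authors' deposited table; other genes were picked after their values had been seen. At most 2 IDs are printed per direction. Marker and pathway lists could not be matched without gene names, so none was scored. The members and lists were chosen with earlier results of these data known. Alternatives were other limits, rankings, scalings, tools, thresholds and definitions of a neighbour.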

Additional observations from a re-analysis of the deposited data

How the results depend on the processing

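A limit of 5000 gave 291 genes holding 55.0% of B and 55.4% of A, and 32 of the 291 were called. With a limit of 20000 there were 41 genes holding 31.3% of B and 33.4% of A, and 4 of the 41 were called. Beside these stand 1388 called of all 9280 genes (15.0%). Leaving out overlapping models put the shares at 43.3% of B and 44.7% of A. At a DESeq adjusted p under 0.01, 10 of the 16 calls remained. The median log2 ratio of 0.17 became -0.0051 with equal arm totals, 0.072 with the median of genes with a mean of at least 100 set to 0, and 0.15 by the edgeR fold change. All 16 called genes kept their direction under these scalings and a pseudocount of 1, and were called by edgeR. The median span and the count of neighbours among the 119 stayed within 1.5 times under the alternatives run. Among the other 9161 genes, the count beside one of the 119 moved from 219 to 659 within 10 kb and to 428 for the next model or the next but one, where the counts among the 119 were 21 and 18. No paired analysis was possible because the table holds 1 mean per arm and no replicate numbers. For the same reason, other normalizations, low-count filters and leaving out replicates were not run. The depth of single libraries is unknown, so no counting interval is given.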

Other observations

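Outside the 119 genes, 38 others had at least 10000 normalized counts in 1 arm, 28 of them in B and 10 in A, and 13 of the 38 were called by DESeq in the authors' deposited table, beside 15.0% of all genes. That these genes differed between the arms follows in part from how they were picked, since the mean over both arms had to stay under 10000, and no test was made of it. The widest differences among them were the following, picked after their values had been seen. A scaffold 19 gene (284354 to 286011) had 10542 in B and 208 in A in the authors' deposited table. In the other direction, a scaffold 1 gene (2324121 to 2325551) had 223 in B and 13281 in A in the authors' deposited table. On scaffold 7, the gene at 587602 to 588526 had 264 in B and 13278 in A in the authors' deposited table. On scaffold 6, the gene at 1065964 to 1066692 had 1660 in B and 10727 in A in the authors' deposited table.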
